A study of Homo sapiens with 12 samples.

Results

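The HOX genes are the homeobox transcription factors of the HOXA, HOXB, HOXC and HOXD clusters, chosen here as every gene whose symbol is the cluster name followed only by digits. The files hold 39 such genes among 58302: 11 in HOXA, 10 in HOXB, 9 in HOXC and 9 in HOXD. RNA was sequenced in 12 libraries, 2 in each of 6 groups, all made from H1, an established human embryonic stem cell line. WT cells carried both H3K27me3 demethylases. dKO cells lacked the catalytic JmjC part of UTX (gene KDM6A) and of JMJD3 (gene KDM6B), deleted with CRISPR in lines grown from selected clones. The groups were WT-NPC and dKO-NPC, neural progenitor cells for which the labels give no passage and the study's methods give passage 2, WT-NPC-P4 and dKO-NPC-P4, the same cells at passage 4, and WT-D28 and dKO-D28, cells differentiated from progenitors for 28 days with GDNF, BDNF and cAMP. All progenitors were induced with SB431542 and dorsomorphin and kept as neurospheres in bFGF and EGF. The labels do not say whether the 2 samples of a group came from separate cultures, so p-values measure only the spread between these samples, which may be technical.

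HOX genes lie in the order in which they are used along the body axis. The genes at the 3′ end of a cluster (the low numbers) mark the hindbrain and neck, and those at the 5′ end (the high numbers) mark the trunk and tail. Forebrain cells normally keep all clusters closed under H3K27me3, the mark that PRC2 writes and that UTX and JMJD3 remove. Retinoic acid, CDX factors and caudal FGF and Wnt signals open them from the 3′ end.

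Total counts were between 756942 and 10601172 per library, lowest in the 4 libraries of the WT-NPC and dKO-NPC groups. A level of 3 counts over both libraries of a group corresponds to 1.4 CPM in WT-NPC and 0.162 CPM in WT-D28, where CPM is the count scaled to the TMM-adjusted library total. Values below these group floors were taken as not detectable at this depth, and all intervals and floors cover counting error only. KDM6A ran from 49.7 to 53.1 CPM in WT-NPC-P4 and from 27.3 to 31.4 CPM in dKO-NPC-P4 (edgeR quasi-likelihood test, adjusted p = 0.00691), but did not pass the test in dKO-NPC (53.6 to 60.4 against 38.3 to 39.2 CPM, adjusted p = 0.381) or at day 28 (43.6 to 48.3 against 31.9 to 58.5 CPM, adjusted p = 0.89). KDM6B was higher in dKO-NPC-P4 (115.0 to 126.0 against 181.0 to 185.0 CPM, adjusted p = 0.00022), lower in dKO-D28 (186.0 to 202.0 against 144.0 to 150.0 CPM, adjusted p = 0.00387) and did not pass in dKO-NPC (adjusted p = 0.685). Counts over whole genes cannot check the loss of the catalytic part. The 2 dKO-D28 libraries stood further apart than those of any other group (chi-square per degree of freedom 14, against 1.55 to 3.3). SOX2, 1 of 7 listed neural progenitor markers, was between 215.0 and 508.0 CPM in every library. It was lower in dKO-NPC-P4 than in WT-NPC-P4 (log2 fold change -1.19 ± 0.11, edgeR adjusted p = 2.47e-07). PAX6 had 11.7 and 11.5 CPM in WT-D28 and 187.0 and 351.0 in dKO-D28, and HES5 did not exceed 2.57 CPM. Of 6 such markers tested, 0 were higher and 2 lower in dKO-NPC-P4 than in WT-NPC-P4. At day 28, 1 was higher and 1 lower in dKO cells. Of all genes with a mean of 20 counts, 11.1% were called higher and 11.2% lower at passage 4, and 12.4% and 11.7% at day 28.

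The start-site sequences of 2 HOXD genes with counts in WT-D28 cells, and of 2 genes without a count in any library, show how dense the CG pairs are at these starts. Each is 300 bases long, from 250 before to 50 after the start of a RefSeq transcript (GRCh38.p14), 5′ to 3′ on the gene's strand, with each CG pair in capitals. HOXD8 is at chr2:176129455-176129754 (+), HOXD3 at chr2:176157057-176157356 (+), HOXB1 at chr17:48530962-48531261 (-) and HOXD12 at chr2:176099545-176099844 (+).
HOXD8: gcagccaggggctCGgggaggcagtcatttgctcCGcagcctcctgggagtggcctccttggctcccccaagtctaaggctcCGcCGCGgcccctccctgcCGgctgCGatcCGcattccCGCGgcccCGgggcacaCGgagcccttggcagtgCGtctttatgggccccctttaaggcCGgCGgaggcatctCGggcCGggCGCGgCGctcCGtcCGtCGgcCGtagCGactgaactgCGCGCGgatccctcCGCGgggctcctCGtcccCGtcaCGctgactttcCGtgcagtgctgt
HOXD3: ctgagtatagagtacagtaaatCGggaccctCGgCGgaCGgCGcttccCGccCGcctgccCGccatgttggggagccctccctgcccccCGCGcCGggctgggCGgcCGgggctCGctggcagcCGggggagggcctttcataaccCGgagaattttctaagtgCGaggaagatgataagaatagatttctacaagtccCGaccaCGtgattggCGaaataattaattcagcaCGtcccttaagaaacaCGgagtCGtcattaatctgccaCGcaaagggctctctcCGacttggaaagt
HOXB1: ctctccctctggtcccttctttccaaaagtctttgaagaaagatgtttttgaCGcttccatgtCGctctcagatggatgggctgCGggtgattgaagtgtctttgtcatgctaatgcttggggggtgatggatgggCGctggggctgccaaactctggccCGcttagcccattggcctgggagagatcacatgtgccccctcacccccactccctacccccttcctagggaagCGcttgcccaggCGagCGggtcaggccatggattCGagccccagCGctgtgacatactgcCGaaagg
HOXD12: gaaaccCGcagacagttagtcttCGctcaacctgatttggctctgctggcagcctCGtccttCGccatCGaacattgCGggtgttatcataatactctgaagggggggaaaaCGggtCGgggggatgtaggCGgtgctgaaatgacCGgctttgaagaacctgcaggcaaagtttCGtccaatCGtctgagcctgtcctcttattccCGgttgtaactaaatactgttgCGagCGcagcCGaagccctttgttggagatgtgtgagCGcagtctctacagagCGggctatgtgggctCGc

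The HOXD8 window held 34 CG pairs, the HOXD3 window 25, the HOXD12 window 19 and the HOXB1 window 11. The ratio of observed to expected CG pairs was 0.89, 0.99, 0.87 and 0.44 in the same order. A CG-rich window was thus found both at genes with and at a gene without counts. RefSeq held 27 windows for 20 of the 39 genes, with 7 for HOXA3, the same window for HOXC4 and HOXC5, and HOXB1 as the single HOXB gene, so HOXB2 to HOXB9 and HOXB13 were not part of these values. Their median CG ratio was 0.849, against 0.579 over all 35114 promoters, and 22 of 27 (81.5%) exceeded 0.6, against 48.8% of all. The MEIS motif TGACAG, searched on both strands, occurred in 4 windows (14.8%, against 15.8% of all promoters). The PBX-HOX motif TGATNNAT, also on both strands, occurred in 3 (11.1%, against 7.4%), HOXB1 among them. These matches describe letters in the window and no binding was measured.

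The clusters also hold microRNAs that act on HOX transcripts. Some mature strands with known HOX targets are shown with the seed (bases 2 to 8) in capitals, as RefSeq gives them. They come from MIR10A at chr17:48579904-48579926 (-) and MIR196A1 at chr17:48632532-48632553 (-) in HOXB, and MIR196B at chr7:27169528-27169549 (-) in HOXA. MIR196A2 at chr12:53991762-53991783 (+) in HOXC gives the same miR-196a-5p. MIR10B in HOXD was listed with its 3p strand alone and is not shown.
miR-10a-5p: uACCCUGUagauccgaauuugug
miR-196a-5p: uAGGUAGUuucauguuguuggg
miR-196b-5p: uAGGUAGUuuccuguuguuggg

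Both miR-196 strands share their seed, and miR-10a has another. The precursor genes had 0 counts in all 12 libraries. The libraries were made for long RNA, so this says nothing of the mature microRNAs.

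The 39 genes were close to silent. In 30 of them (76.9%) no library had more than 2 counts, and 15 (38.5%) had no count at all. Among all 19708 protein-coding genes these shares were 20.7% and 12.4%. A library with 10 or more counts was found for 4 of the 39 (10.3%) and for 72.1% of protein-coding genes, and no HOX gene reached a mean of 20 counts over the 12 libraries. The whole HOXA cluster (11 of 11) and HOXC cluster (9 of 9) stayed at 2 counts or fewer, with 8 counts each over all libraries. HOXB held 158 counts and 6 genes above 2 counts, and HOXD held 49 counts and 3 such genes. The genes without any count were HOXA3, HOXA4, HOXA6, HOXA7, HOXA9, HOXA11, HOXA13, HOXB1, HOXC5, HOXC6, HOXC9, HOXC11, HOXC12, HOXD11 and HOXD12.

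With detection set at 3 or more counts in both libraries, 5 genes were detected in WT-NPC-P4 (HOXB2, HOXB3, HOXB4, HOXB5 and HOXB6) and 4 in WT-D28 (HOXB3, HOXD3, HOXD8 and HOXD9). The number was 0 in WT-NPC, dKO-NPC, dKO-NPC-P4 and dKO-D28. This rule is for single genes, and RNA counts do not measure whether a cluster is open. Summed over its genes, HOXD had 5 and 4 counts in dKO-NPC-P4 and 0 and 0 in WT-NPC-P4. The HOXB sum was 3 and 3 counts in dKO-NPC-P4 and 47 and 60 in WT-NPC-P4. With counts thinned to the lowest total, HOXB3 in WT-NPC-P4 was the single gene detected. Over all 39 genes, the 6 WT libraries held 189 counts (6.83 CPM pooled) and the 6 dKO libraries 34 (1.64 CPM pooled). HOXB in WT-NPC-P4 gave 107 of the 189.

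HOXB held the most counts, and in WT-NPC, dKO-NPC and WT-NPC-P4 its mean was the highest of the 4 clusters. Its 10 genes summed to 15.5 and 15.2 CPM in WT-NPC-P4 (mean 15.3 ± 0.203, SD, n = 2) and to 0.692 and 0.725 CPM in dKO-NPC-P4 (0.709 ± 0.023). The groups did not overlap, and the 107 counts against 6 gave a ratio of 21.6 (exact 95% counting interval 9.61 to 60.2). WT-NPC had 3.86 and 6.61 CPM (5.23 ± 1.94) and dKO-NPC 2.22 and 1.39 CPM (1.81 ± 0.584), from 12 and 5 counts (ratio 3.13, 1.03 to 11.3). WT-D28 had 1.77 and 1.19 CPM (1.48 ± 0.413) and dKO-D28 0.239 and 0 CPM, from 27 counts and 1 (ratio 13.8, 2.27 to 563.0). In order, WT-NPC-P4 stood above WT-NPC, with a ratio of 2.73 (1.5 to 5.45), and WT-NPC above WT-D28, with a ratio of 3.85 (1.78 to 7.87). The dKO-NPC and dKO-NPC-P4 sums did not separate beyond counting error (ratio 2.53, 0.611 to 9.96).

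**Figure D1:**
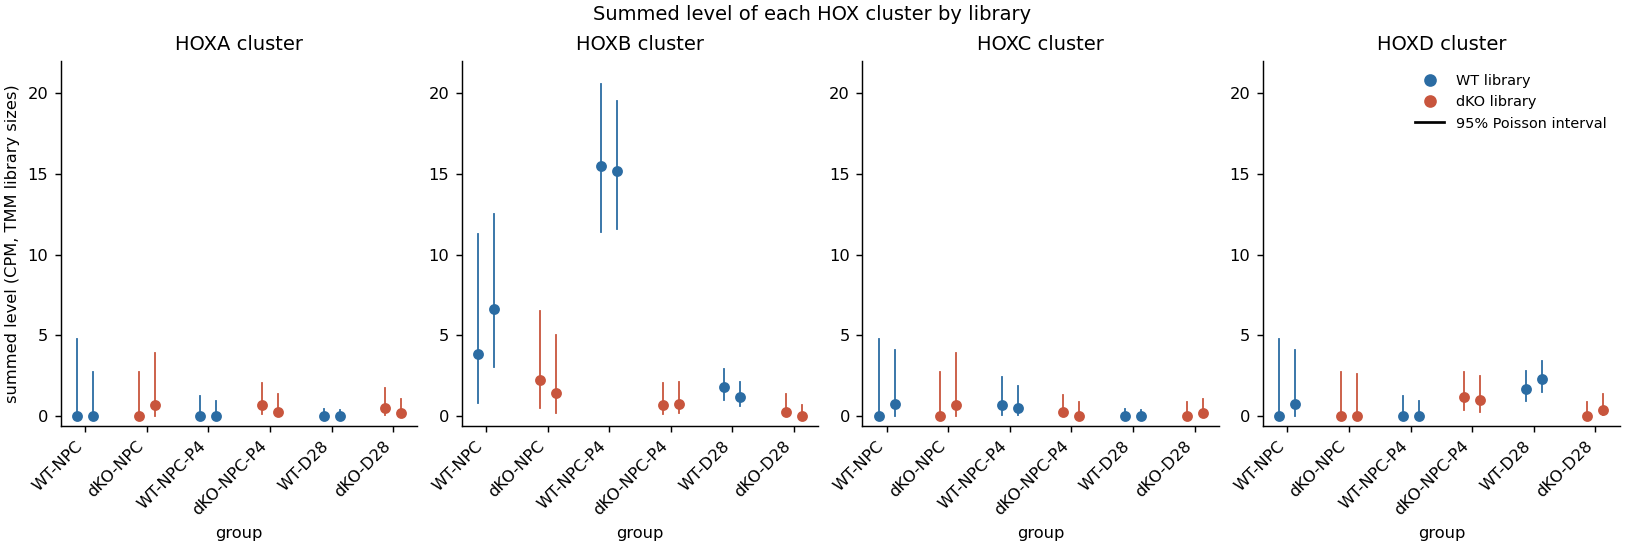
Summed level of each HOX cluster (CPM with TMM library sizes) in the 12 libraries by group. Points are single libraries and lines their 95% Poisson intervals. HOXB stands at 15.5 and 15.2 CPM in WT-NPC-P4, and no other cluster or group exceeds 6.61 CPM.

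Each test of HOX genes below used the genes with at least 1 count in any library (34982 genes). None of the 39 genes passed the mean of 20 counts, which the tests of all other genes used (13454 genes). Of the 39, 24 had a count and could be tested. A gene was called at p below 0.05 and a fold above 2 in the edgeR quasi-likelihood fit of all 12 libraries. Between genotypes, rose and fell mean higher and lower in dKO than in WT cells, not a change over time. Adjusted p-values of HOX genes are Benjamini-Hochberg values over all 34982 genes. Ranges beside them are those over the alternatives that gave one. DESeq2 gave none for HOXB5 and HOXB6 at passage 4, for HOXD8 and HOXD9 at day 28, and for the difference between passage changes. A fold written as "at least" takes the counts of the higher group as observed and the floor of 3 counts for a group at 0, so it leaves out the counting error of the higher group.

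Between dKO-NPC-P4 and WT-NPC-P4, 5 HOX genes fell and 0 rose. Over all genes tested 6.76% were called lower and 7.91% higher. The 5 genes were HOXB2, HOXB3, HOXB4, HOXB5 and HOXB6, neighbours in the 3′ and middle part of HOXB.

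HOXB3 (ENSG00000120093), which patterns the hindbrain, had 25 and 19 counts in WT-NPC-P4 (8.23 and 4.81 CPM) and 0 and 3 in dKO-NPC-P4 (0 and 0.725 CPM). Its counts were 0 and 1 in WT-NPC, 0 and 0 in dKO-NPC, 10 and 7 in WT-D28 and 0 and 0 in dKO-D28. Both WT-NPC-P4 libraries were above every dKO library. The ratio at passage 4 was 17.8 (5.7 to 89.5), with a log2 fold change of -4.09 ± 0.75 (SE, n = 2 against 2) and an adjusted p of 6.21e-07 (edgeR, range 1.42e-10 to 0.018). Exons of HOXB3 share 11.7% of their bases with HOXB4, HOXB6 and antisense genes in GENCODE v44, so its reads could be assigned only in part.

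HOXB4 (ENSG00000182742), a 3′ gene also known from blood stem cells, had 9 and 12 counts in WT-NPC-P4 (2.96 and 3.04 CPM) and 0 and 0 in dKO-NPC-P4. It had 0 and 1 counts in WT-NPC, 0 and 1 in dKO-NPC, 2 and 4 in WT-D28 and 0 and 0 in dKO-D28. WT-NPC-P4 libraries were again the highest, without overlap. Its level was at least 8.48-fold higher in WT-NPC-P4, taking 3 counts over the dKO group as the floor (edgeR adjusted p = 6.45e-05, range 1.03e-06 to 0.0172).

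HOXB2 (ENSG00000173917), which acts in facial motor neuron segments, was less even, with 3 and 11 counts in WT-NPC-P4 (0.987 and 2.78 CPM) and 1 and 0 in dKO-NPC-P4. It had 0 and 2 counts in WT-NPC, 3 and 0 in dKO-NPC, 2 and 0 in WT-D28 and 0 and 0 in dKO-D28. At passage 4 the groups did not overlap, but WT replicate 2 carried most of the counts. The ratio was 17.0 (2.58 to 717.0), with a log2 fold change of -3.77 ± 1.22 (edgeR adjusted p = 0.0117, range 0.002 to 0.414), and the call was lost without WT-NPC-P4 replicate 2 (log2 fold change -2.8) and in DESeq2 (-4.05).

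HOXB5 and HOXB6, genes of the cervical and upper thoracic levels, had 3 and 5 and 4 and 8 counts in WT-NPC-P4 and 0 in dKO-NPC-P4. HOXB5 was at least 3.23-fold and HOXB6 at least 4.85-fold higher in WT-NPC-P4, with edgeR adjusted p of 0.0306 (range 0.0117 to 0.181) and 0.00633 (range 0.000786 to 0.132). DESeq2 called neither of these genes (log2 fold changes -4.74 and -5.31), and HOXB6 shares 32.9% of its exon bases with HOXB3 and HOXB-AS3. HOXB7, at 1 and 2 counts, and HOXB8, at 1 and 3, were at 0 in dKO-NPC-P4 and not called (HOXB8 edgeR adjusted p = 0.203, range 0.163 to 0.649). HOXB9, by contrast, was at 0 in WT-NPC-P4 and at 2 and 0 in dKO-NPC-P4.

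Per length, the WT-NPC-P4 levels were highest for HOXB4 (1.48 and 1.52 CPM per kb of exon). HOXB3 followed at 1.11 and 0.647, HOXB2 at 0.402 and 1.13, HOXB6 at 0.506 and 0.777 and HOXB5 at 0.531 and 0.681 CPM per kb. These 4 ranges overlapped, so their order is not resolved by the spread. HOXB7 (0.217 and 0.333) and HOXB8 (0.137 and 0.316) were lower than HOXB2 to HOXB6 in both libraries, HOXB9 was at 0, and HOXB13 had 1 count. HOXB1, the 3′-most gene, had none. The level per length thus ran from HOXB2 to HOXB8 and lay highest on the 3′ side without its first gene. Length here is all exon bases in GENCODE v44, shared ones included (7425 for HOXB3, 2002 for HOXB4). Without division by length HOXB3 was highest (8.23 and 4.81 CPM, against 2.96 and 3.04 for HOXB4). The place of the peak therefore depends on the length used.

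**Figure D2:**
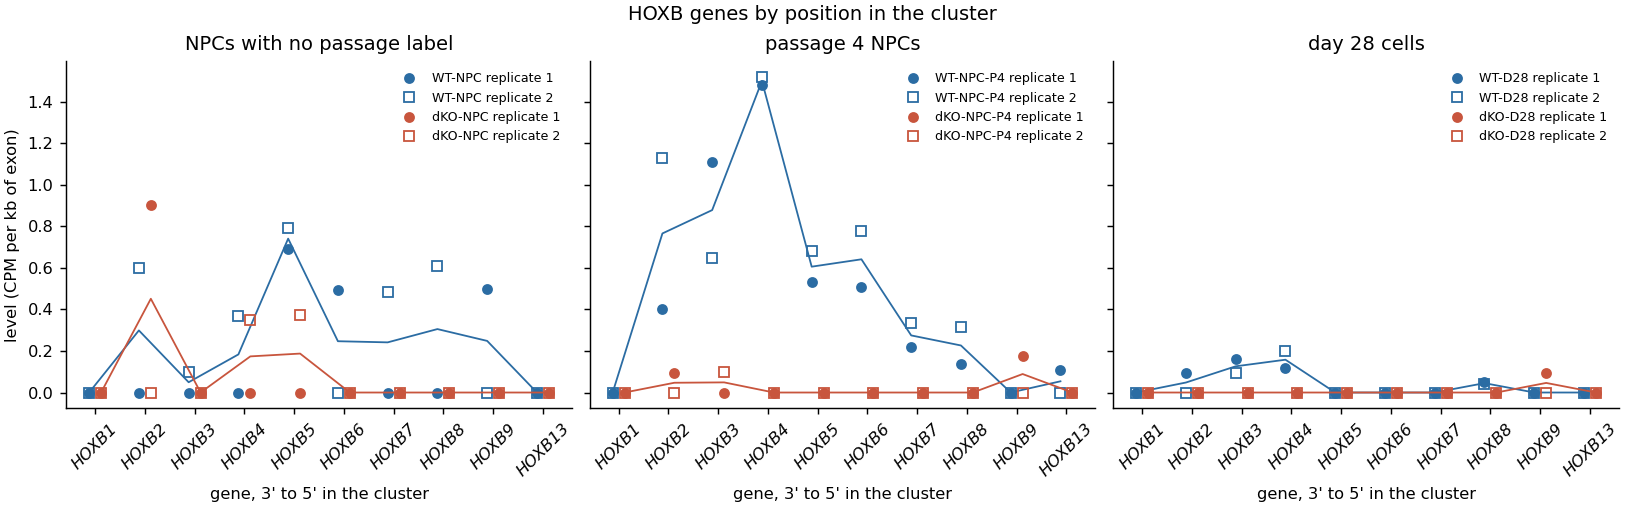
Level of the 10 HOXB genes (CPM per kb of exon) in their order along the cluster, in progenitors without a passage label, passage 4 progenitors and day 28 cells. Points and squares are replicates 1 and 2 and lines join group means. In WT-NPC-P4 the level peaks at HOXB4 (mean 1.5) and declines to 0.226 at HOXB8, while no gene of dKO-NPC-P4 has a mean above 0.0892.

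Markers of other cells differed between the same groups. Of all genes with a mean of 20 counts, the filter used for markers, 11.2% were called lower and 11.1% higher. Summed neuron markers ran from 4310 to 4860 CPM in WT-NPC-P4 and from 762 to 795 CPM in dKO-NPC-P4 (6 of 6 called lower), and NEUROD6 was at 0 in dKO-NPC-P4. Summed astrocyte markers ran from 1810 to 1960 CPM and from 27.5 to 34.5 CPM (4 of 4 lower). Most of the WT-NPC-P4 sum was 1 gene, SLC1A3 (1750 and 1920 CPM, against 16.2 and 19.6 in dKO-NPC-P4). GFAP, S100B and AQP4 did not exceed 27.0 CPM in WT-NPC-P4, so the sum is no measure of astrocyte number. Others were higher in dKO-NPC-P4, with summed mesenchyme markers from 157.0 to 172.0 CPM in WT and from 901.0 to 919.0 CPM in dKO (3 of 5 tested higher), neural crest markers at 24.5 to 31.6 and 120.0 CPM (3 of 5), and surface ectoderm markers at 6.83 to 10.5 and 176.0 to 177.0 CPM (1 of 2). Most of the surface ectoderm sum in dKO-NPC-P4 was KRT18 (163.0 CPM in both libraries), while KRT5 and TP63 did not exceed 0.725 CPM at passage 4. The crest markers SOX10 and FOXD3 did not exceed 0.692 CPM there and were not tested. These sums therefore do not name the cells. The part of these markers in the HOXB difference was not tested. In bulk RNA, fewer cells with HOXB transcripts and less HOXB RNA per cell cannot be told apart.

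Between dKO-NPC and WT-NPC, 0 of the HOX genes were called, against 3.36% of all genes tested. At an unadjusted p below 0.05 the number was also 0. The highest counts in these 4 libraries were 3 (HOXB2, dKO-NPC replicate 1) and 2. HOXB5 was the single gene with a count in both WT-NPC libraries (1 and 2, against 0 and 1 in dKO-NPC). The floor of 3 counts over both libraries was 1.4 CPM in WT-NPC and 1.08 CPM in dKO-NPC. The detection rule of 3 counts in each library asked for more, 3.86 and 2.2 CPM in WT-NPC and 2.22 and 2.09 in dKO-NPC.

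With passage in WT cells, 2 genes rose from WT-NPC to WT-NPC-P4, HOXB3 and HOXB4, against 6.04% of all genes called higher. HOXB3 rose from 1 count to 44 (ratio 13.5, 2.29 to 544.0, log2 fold change 3.76 ± 1.07, edgeR adjusted p = 0.00414, range 0.000704 to 0.121). HOXB4 went from 1 to 21 (ratio 6.43, 1.03 to 266.0) and did not pass adjustment (log2 fold change 2.68 ± 1.33, adjusted p = 0.188, range 0.0992 to 0.509). The HOXB4 call was lost in DESeq2 and without either library of WT-NPC, WT-NPC-P4 or WT-D28, with log2 fold changes between 2.07 and 6.71. From dKO-NPC to dKO-NPC-P4, 0 HOX genes were called, against 8.4% of all genes, and 0 had an unadjusted p below 0.05.

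The difference between both passage changes (dKO minus WT) was called for HOXB2 and HOXB4, against 5.04% of all genes called lower. Neither passed adjustment (HOXB2 edgeR adjusted p = 0.291, range 0.142 to 1.0, HOXB4 adjusted p = 0.262, range 0.199 to 1.0). The HOXB2 call held in 8 of 17 alternatives and the HOXB4 call in 9 of 17. HOXB3, the gene with the most counts, was not called in this test.

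At day 28, 3 HOX genes were lower in dKO-D28 than in WT-D28, and 0 higher. Over all genes tested 8.35% were called lower and 8.91% higher. The 3 were HOXB3, HOXD8 and HOXD9. The means of HOXD and HOXB in WT-D28 lay close (1.97 and 1.48 CPM), and HOXB was the higher in replicate 1. The 9 HOXD genes summed to 1.66 and 2.28 CPM in WT-D28 (1.97 ± 0.441) and to 0 and 0.38 CPM in dKO-D28, from 37 and 2 counts (ratio 9.42, 2.43 to 80.7).

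HOXD8 (ENSG00000175879), a trunk gene, had 6 and 13 counts in WT-D28 (0.709 and 1.29 CPM) and 0 and 0 in dKO-D28. It had 0 and 1 counts in WT-NPC, 0 and 0 in dKO-NPC, 0 and 0 in WT-NPC-P4 and 2 and 2 in dKO-NPC-P4. Its level was at least 3.23-fold higher in WT-D28 (edgeR adjusted p = 0.00781, range 0.00382 to 0.114), and DESeq2 did not call it (log2 fold change -4.68). In GENCODE v44 HOXD-AS2 shares 24.4% of its exon bases. The counting strand is not given in the sources used here, so both cannot be told apart there.

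HOXD9 and HOXD3 each had 3 and 5 counts in WT-D28 and 0 in dKO-D28, so no fold is given. HOXD9 was called without passing adjustment (edgeR adjusted p = 0.15, range 0.118 to 0.419), and the call was lost in DESeq2, with GC and length offsets, with a replicate block (with and without offsets) and without either library of dKO-NPC-P4, WT-D28 or dKO-D28 (log2 fold changes from -3.99 to -3.45). HOXD3 was not called (edgeR adjusted p = 0.178, range 0.118 to 0.492). HOXD4 and HOXD10 had 1 count each, in WT-D28 replicate 1. HOXD1, HOXD11, HOXD12 and HOXD13 had none in WT-D28. HOXB3, at 10 and 7 counts in WT-D28 (1.18 and 0.694 CPM) and 0 in dKO-D28, was at least 2.89-fold higher (adjusted p = 0.00409, range 0.00315 to 0.0605). HOXB4 had 2 and 4 counts against 0.

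The day 28 groups differed in markers of other cells too. Of all genes with a mean of 20 counts, 11.7% were called lower and 12.4% higher there. Summed neuron markers ran from 3330 to 3340 CPM in WT-D28 and from 594 to 1030 CPM in dKO-D28. Astrocyte markers ran from 295 to 300 and from 22.8 to 24.8 CPM. Most of these astrocyte sums was again SLC1A3, at 261.0 and 263.0 CPM in WT-D28 and 17.0 and 14.4 in dKO-D28. Summed neural crest markers ran from 3.17 to 3.31 CPM in WT-D28 and from 100 to 181.0 CPM in dKO-D28 (5 of 5 tested higher), and surface ectoderm markers from 12.1 to 12.2 and from 269.0 to 546.0 CPM (2 of 2 higher). Mesenchyme markers ran from 85.1 to 90.6 and from 103.0 to 215.0 CPM (3 of 5 higher, 1 lower). SOX10, a crest marker too low to be tested, went the other way, with 8 and 4 counts in WT-D28 and 1 and 2 in dKO-D28. The part of these markers in the HOX differences was not tested.

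Over differentiation, HOXB5 was called lower in WT-D28 than in WT-NPC (against 7.82% of all genes called lower), and HOXB2 lower in dKO-D28 than in dKO-NPC (against 3.86%). Both rest on 3 counts against 0, so no fold is given. HOXB5 had 1 and 2 counts in WT-NPC (edgeR adjusted p = 0.0215, range 0.0174 to 0.224). HOXB2 had 3 and 0 in dKO-NPC (adjusted p = 0.138, range 0.0757 to 1.0) and was not called without dKO-NPC replicate 1. The difference between both differentiation changes was called for 0 HOX genes (0 at an unadjusted p below 0.05), against 12.2% of all genes.

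A few counts lay on the dKO side. The HOXA cluster had 0 counts in all 6 WT libraries (28894374 counts in total, which allows up to 0.108 CPM) and 8 counts in 5 of 6 dKO libraries (0.386 CPM pooled, at most 3 in a library). At passage 4 dKO cells had 4 HOXA counts (95% Poisson interval 0.129 to 1.21 CPM) and WT cells 0 (0 to 0.528 CPM). These separate intervals overlapped, which is not a test of the difference. With the floor of 3 counts for WT-NPC-P4, the HOXA sum was at least 1.1-fold higher in dKO-NPC-P4, leaving out the counting error of its 4 counts. No HOXA gene was called in any comparison.

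HOXD gave 5 and 4 counts in dKO-NPC-P4 (1.15 and 0.966 CPM) and 0 in both WT-NPC-P4 libraries. The libraries did not overlap. The pooled Poisson intervals did (0.486 to 2.02 and 0 to 0.528 CPM), which is not a test of the difference. With the floor of 3 counts for WT-NPC-P4, the HOXD sum was at least 2.48-fold higher in dKO-NPC-P4, leaving out the counting error of its 9 counts. HOXD8 (2 and 2) and HOXD9 (2 and 1) held 7 of the 9, with HOXD1 and HOXD13 at 1 each. No HOXD gene was called (HOXD8 edgeR adjusted p = 0.222, range 0.193 to 0.557). At day 28 HOXD stood the other way round, so the group with the HOXD counts was dKO at passage 4 and WT at day 28. HOXC never exceeded 2 counts in a library, with 5 counts over the WT and 3 over the dKO libraries.

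The non-coding genes of the clusters were as low. Of 18 antisense and long non-coding RNAs in the files, 15 had no library above 2 counts. HOXB-AS1, beside HOXB3, had 3 and 8 counts in WT-NPC-P4, 0 and 3 in dKO-NPC-P4 and 2 and 2 in WT-D28. HOTAIRM1, a long non-coding RNA of the HOXA cluster, had 2 and 3 counts in WT-NPC-P4, 5 and 1 in dKO-NPC-P4 and 6 and 0 in dKO-D28. HOXD-AS2, beside HOXD8, had 1 and 3 in WT-D28, 1 and 0 in WT-NPC-P4 and 0 and 2 in dKO-NPC-P4.

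The low level did not extend to all neighbours. Of the 18 genes listed as flanking the clusters, 12 passed the mean of 20 counts. Of these 0 were called in dKO-NPC against WT-NPC, 0 at passage 4 and 1 at day 28, SKAP2 beside HOXA. SKAP2 had 0.709 and 1.88 CPM in WT-D28 and 5.97 and 5.89 in dKO-D28 (log2 fold change 2.13 ± 0.37, edgeR adjusted p = 0.000159). In the earlier progenitors SKAP2 had 2.57 and 1.47 CPM in WT-NPC and 5.92 and 4.88 in dKO-NPC. Of all genes with that mean count, 11.2% were called lower and 11.1% higher at passage 4, and 11.7% and 12.4% at day 28. In dKO-NPC these shares were 1.84% and 2.59%. MTX2, next to HOXD, was between 24.9 and 34.1 CPM as group means. EVX2, a homeobox gene at the other end of HOXD, was at 0 in every library, as were EVX1 beyond HOXA and PRAC1 beside HOXB13. Within 500 kb of HOXC, 14 of 21 other coding genes had at least 1 CPM in every group, against a highest group mean of 0.367 CPM for any HOXC gene. Around HOXB 8 of 18 did. The median of the highest group means over all 18, 1.53 CPM, lay below the highest of HOXB3 (6.52 CPM). The highest group means of the 8 ran from 19.9 CPM (SNX11) to 519.0 CPM (IGF2BP1), all above HOXB3.

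**Figure D3:**
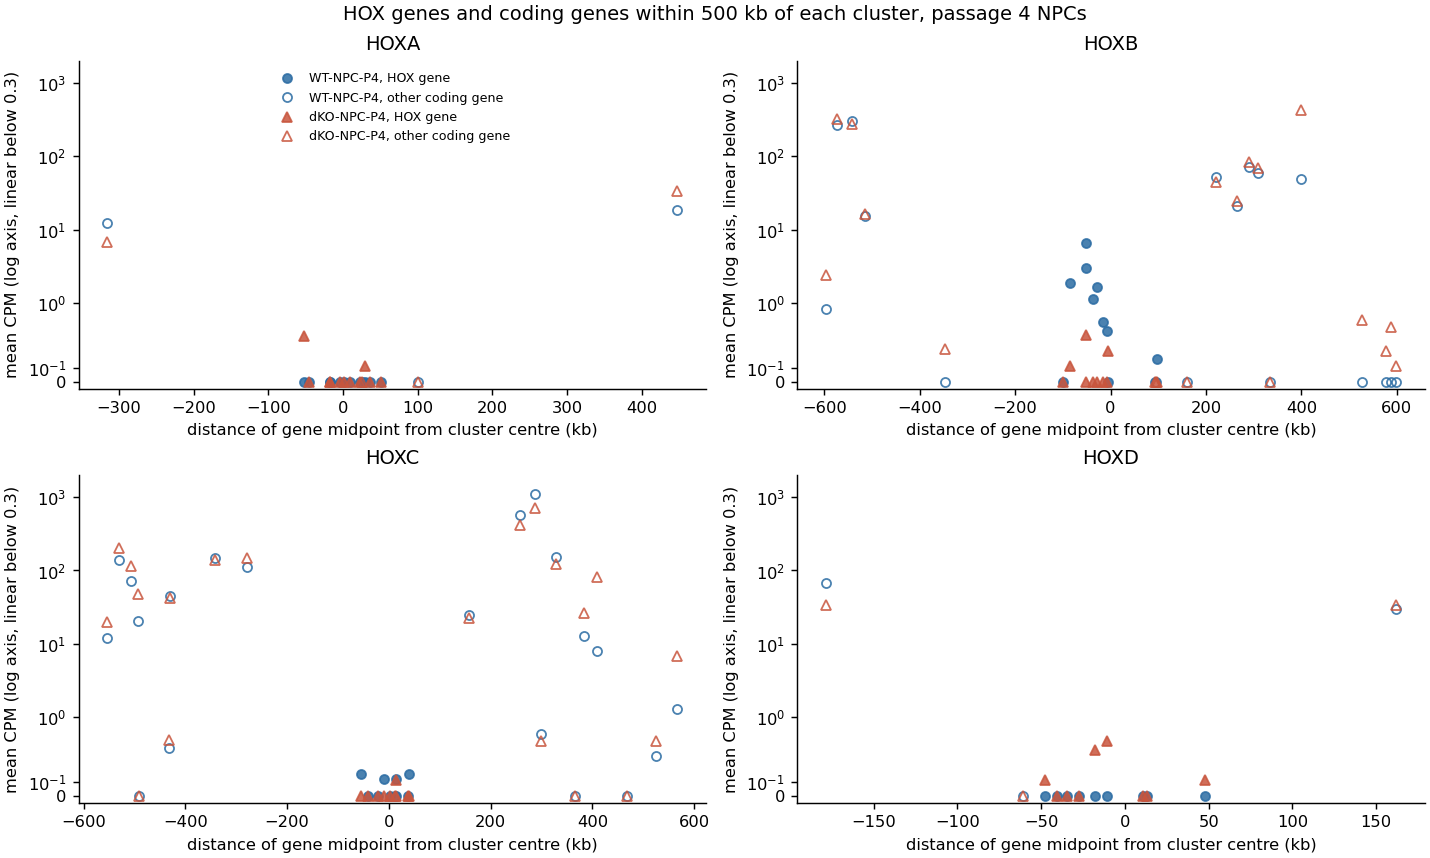
Mean level (CPM, log axis that is linear below 0.3) of HOX genes (filled) and of the other coding genes within 500 kb of each cluster (open) in WT-NPC-P4 and dKO-NPC-P4, against the distance of the gene's midpoint from the cluster's centre in kb. Outside HOXB no HOX gene exceeds 0.472 CPM, in HOXB the highest is HOXB3 at 6.52 CPM in WT-NPC-P4, and many neighbours lie above 10 CPM.

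The genes that act on HOX clusters were tested with the mean of 20 counts (13454 genes). In that test 1.84% of genes were called lower and 2.59% higher in dKO-NPC, 11.2% and 11.1% at passage 4, and 11.7% and 12.4% at day 28. Of 24 listed genes of the HOX-inducing signals (CDX factors, retinoic acid, caudal FGF and Wnt), 13 were tested. They include DHRS3, which lowers retinoic acid and had 9.22 and 7.84 CPM in WT-NPC-P4 and 24.7 and 24.2 in dKO-NPC-P4. The counts below therefore do not give the direction of the inducing signal. In dKO cells 1 rose and 1 fell at the first stage, 7 rose and 0 fell at passage 4 (median log2 fold change 1.19), and 9 rose and 0 fell at day 28 (median 1.76). The medians of all genes tested were 0.02 and 0. Under the alternatives 5 to 7 rose at passage 4 and 8 to 9 at day 28.

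The other genes of this list that are named first carry or make retinoids. CRABP2, a retinoic acid carrier, had 25.0 and 19.0 CPM in WT-NPC-P4 and 294.0 and 228.0 in dKO-NPC-P4 (log2 fold change 3.58 ± 0.17, edgeR adjusted p = 1.96e-10). CRABP1 had 18.6 and 18.4 CPM in WT-D28 and 114.0 and 142.0 in dKO-D28 (2.79 ± 0.16, adjusted p = 1e-09). ALDH1A3, which makes retinoic acid, was at 0 in both WT-D28 libraries and at 51.6 and 67.7 CPM in dKO-D28 (adjusted p = 4.13e-07), whereas in the earlier progenitors it had 202.0 and 158.0 CPM in WT-NPC and 65.1 and 27.9 in dKO-NPC. Of the CDX factors, CDX4 had no count, CDX1 and CDX2 had 1 library each with a level above 0, and none exceeded 0.231 CPM. TBXT did not exceed 0.231 CPM either. WNT3A, too low to be tested, had 0.658 and 0.253 CPM in WT-NPC-P4 and 11.1 and 15.2 in dKO-NPC-P4. In WT-D28 it was at 0, and in dKO-D28 at 0.716 and 7.8 CPM. FGF8 had 2.63 and 1.77 CPM in WT-NPC-P4 and 9.0 and 5.56 in dKO-NPC-P4. At day 28 FGF8 had 4.61 and 4.46 CPM in WT and 11.7 and 27.4 in dKO cells.

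The TALE cofactors, which bind DNA together with HOX proteins, passed the mean of 20 counts in 9 of 10 cases. Of these, 0 changed in dKO-NPC, 2 rose and 2 fell at passage 4, and 3 rose and 1 fell at day 28. MEIS2 had 286.0 and 281.0 CPM in WT-NPC-P4 and 49.6 and 40.1 in dKO-NPC-P4 (log2 fold change -2.66 ± 0.13, edgeR adjusted p = 1.69e-10). MEIS1 had 15.7 and 16.6 CPM in WT-D28 and 88.6 and 82.3 in dKO-D28 (2.4 ± 0.18, adjusted p = 1.29e-08). In the earlier progenitors MEIS1 had 132.0 and 88.1 CPM in WT-NPC and 69.5 and 50.9 in dKO-NPC. TGIF1 was also higher in dKO-D28 than in WT-D28 (2.66 ± 0.16), and MEIS3 lower (-1.67 ± 0.17). The tenth cofactor, PBX2, and the retinoid receptor RXRB, which both lie in the major histocompatibility region, were listed at 0 in every library. Whether these zeros mean that the genes were silent was not tested.

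Of 21 genes of the KMT2 methyltransferases with their complexes and of PRC2, which counteract and set HOX silencing, 0 were called in dKO-NPC and at day 28. At passage 4, 1 rose, JARID2 (68.8 and 70.1 CPM in WT, 164.0 and 179.0 in dKO), and 1 fell, PHF19 (50.4 and 51.6 against 22.8 and 19.6). Of 16 hindbrain and spinal cord genes 3 were tested. Of these 2 rose at passage 4, among them GBX2 (6.91 and 8.35 CPM in WT, 48.2 and 53.4 in dKO). At day 28, 1 rose and 1 fell (median log2 fold change -0.22), and GBX2 had 6.74 and 7.53 CPM in WT-D28 and 5.49 and 1.9 in dKO-D28. Of 10 forebrain and midbrain genes tested, 3 rose and 4 fell at passage 4, and 7 rose and 1 fell at day 28. EMX1 had 99.7 and 92.4 CPM in WT-NPC-P4 and 2.31 and 3.14 in dKO-NPC-P4. EMX2 had 4.49 and 4.36 CPM in WT-D28 and 139.0 and 214.0 in dKO-D28. NKX2-1 had 354.0 and 348.0 CPM in WT-D28 and 1.91 and 0.19 in dKO-D28. In WT-NPC, EMX1 had 0 and 2.2 CPM, EMX2 52.7 and 42.6, and NKX2-1 66.9 and 70.5. In dKO-NPC they had 0.74 and 1.39, 55.5 and 62.7, and 87.3 and 116.0 CPM.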

How the data were processed

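RNA was measured by sequencing in 12 libraries, grouped by their labels into 6 groups of 2. The authors made TruSeq libraries from TRIzol-extracted RNA, mapped reads to hg38 with HISAT2 2.0.4, sorted them with SAMtools 1.3.1 and counted them with HTSeq 0.6.0. They deposited raw counts per Ensembl gene for 58302 genes, without normalization or filter. The annotation release and strand setting are not given in the sources used here, and the study's later DESeq 1.18.1 step is not part of these counts. Symbols, lengths and exon overlaps came from GENCODE v44 (57532 genes matched). The genes without a match held 0.196% to 0.227% of a library's counts and stayed in the fits under their identifiers.

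The main test was edgeR 4.0.16 (R 4.3.3), the robust quasi-likelihood fit of 6 group means with TMM sizes, on genes averaging 20 counts or more, calling p below 0.05 and fold above 2. None of the 39 genes passed that filter, so their tests use the alternative of at least 1 count in any library, a change made because of the data. SE is the log2 fold change divided by the root of F. Ratios of summed counts carry exact binomial intervals at 95%, with a floor of 3 counts where a group had none. Alternatives were DESeq2 1.42.0, adjusted p, only the samples compared, offsets for GC content and length in 10 bins with pseudocount 0.1, a replicate block, and each library left out. Most were combined with the looser filter after seeing the data. The fit was tested on simulated data. The members and lists were chosen with earlier results of these data known. Genes named are KDM6A and KDM6B, members with at least 10 counts in a library (HOXB2, HOXB3, HOXB4 and HOXD8), other members by counts, and up to 4 list genes per list by p among those called at adjusted p below 0.05. HOXB5, HOXB6, HOXD3, HOXD9, list genes named outside this rule and the named non-coding RNAs were chosen after their values were seen. The labels name no batches, and any batch and the groups cannot be told apart. Total counts were 756942 to 10601172 per library. Some genes that the rule would name are not reported here.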

Additional observations from a re-analysis of the deposited data

Results flagged for a closer look

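The change from the earlier progenitors to passage 4 differed between genotypes for HOXB2 and HOXB4 when that difference was tested at an unadjusted p. The fitted difference (dKO minus WT) was -4.0 ± 2.04 on the log2 scale for HOXB2 (edgeR adjusted p = 0.291, range 0.142 to 1.0) and -6.28 ± 3.1 for HOXB4 (adjusted p = 0.262, range 0.199 to 1.0). HOXB2 went from 2 to 14 counts over both libraries in WT cells and from 3 to 1 in dKO cells. HOXB4 went from 1 to 21 in WT cells and from 1 to 0 in dKO cells. Fitted values of genes with so few counts depend on the prior count, and neither passed adjustment. Without dKO-NPC replicate 1 the HOXB2 value turned to 1.15, and without dKO-NPC replicate 2 the HOXB4 value was -2.72.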

How the results depend on the processing

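With the mean of 20 counts, 0 of the 39 genes were tested, so the counts of called genes below start from 0. At passage 4, dKO against WT, 5 genes were called with at least 1 count, with adjusted p, and with only the samples compared, 6 with GC and length offsets, 2 in DESeq2, and 4 to 5 with a library left out. At day 28 these were 3, 2 with adjusted p, 4 with only the samples compared, 2 with offsets, 1 in DESeq2, and 2 to 3 with a library left out (2 without either library of dKO-NPC-P4, WT-D28 or dKO-D28). WT-D28 against WT-NPC gave 1 in each, and 1 to 2 with a library left out. The count for dKO-D28 against dKO-NPC was 1, 0 with adjusted p and in DESeq2, and 0 to 1 with a library left out (0 without dKO-NPC replicate 1). WT-NPC-P4 against WT-NPC gave 2, 1 with adjusted p and in DESeq2, and 1 to 2 with a library left out. The comparison of dKO-NPC-P4 with dKO-NPC gave 0, and 1 without dKO-NPC replicate 2 (range 0 to 1). The genotype by passage test gave 2, 0 with adjusted p and in DESeq2, and 0 to 2 with a library left out. Without WT-NPC replicate 1 both genes were lost and the 1 call was of another gene, in the opposite direction. HOXB2 turned to 1.15 without dKO-NPC replicate 1, which held all its dKO-NPC counts.

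In the fit with a replicate block, counts were 5 at passage 4, 2 at day 28, 1 for both differentiation comparisons, 2 for WT passage and 0 for genotype by passage. With the block and offsets they were 5, 2, 1, 2 and 1. Same-numbered libraries deviated together little (mean correlation 0.0177 over 15 group pairs, -0.0555 to 0.182), so the numbers do not pair the samples. With raw library totals the HOXB sum was 14.5 CPM in WT-NPC-P4 and 0.747 in dKO-NPC-P4. Detected genes numbered 1 in WT-NPC and 3 in dKO-NPC-P4 with 1 count in both libraries, 1 in WT-NPC-P4 and 0 in WT-D28 with 10, and 1 and 0 when thinned to the lowest total. Why settings differ was not tested, other than that fewer counts or libraries leave less to detect. Depth limits all HOX results, most in WT-NPC and dKO-NPC.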
